A study of Drosophila melanogaster with 4 samples.

Results

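Broad domains of Su(H), the transcription factor Suppressor of Hairless, were examined in Kc167 cells of Drosophila melanogaster. They were chosen by the width of the deposited peaks, and a broad domain is a peak of 3000 bp or more on one of the 6 assembled chromosome arms (2L, 2R, 3L, 3R, 4 and X). There were 478 such domains among 13913 peaks on the arms, and 14384 peaks in the whole list. The other 13435 peaks on the arms are called narrower peaks below. Su(H) was measured by chromatin immunoprecipitation and sequencing (ChIP-seq) in 3 libraries numbered as replicates, beside 1 library of input DNA, which is chromatin taken before immunoprecipitation. All 4 libraries came from Kc167 cells of the labelled genotype se/e, a female line derived from embryos and labelled as late embryonic stage, with no treatment or second genotype to compare. The antibody was a rabbit polyclonal against Su(H).

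Su(H) is the DNA-binding protein through which the Notch receptor controls transcription, and its mammalian counterpart is RBPJ. On activation, Notch is cut and its intracellular part enters the nucleus, where it joins Su(H) and the coactivator Mastermind at target enhancers. Without it, Su(H) can be held by the corepressor Hairless. Binding of Su(H) at a single enhancer is usually seen as a compact peak, so a peak of several kilobases covers more sequence than 1 short binding site. What lies within such a stretch, whether one or many sites, cannot be read from a list of intervals.

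The files hold 1 list of peaks for the whole series, with a start, an end and a score for each and no value per library. No value here therefore has a replicate error, and the depth of the libraries is unknown. Because width and score come from the same ChIP signal and width chose the domains, every comparison is a description without a test. Intervals on shares are exact binomial 95% intervals; they cover counting error over peaks only, and neighbouring peaks are not independent. Positions are FlyBase release 5 coordinates. Genes at or near the domains were not analysed here.

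The broad domains were few but took up a large part of the bound sequence. They made up 3.44% of the peaks on the arms (3.14% to 3.75%) and covered 2178 kb of the 10767 kb that all peaks on the arms covered, or 20.2%. Their median width was 3982 bp, with 25% of them under 3382 bp and 25% above 5092 bp. The narrower peaks had a median width of 439 bp, and 25% of them were under 290 bp. Widths thinned out steadily above the threshold, with 234 domains of 4 kb or more, 124 of 5 kb or more, 71 of 6 kb or more and 22 of 8 kb or more. Only 9 domains reached 10 kb, and these 9 together covered 121 kb.

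The threshold cut through a continuous range of widths and did not fall in a gap. The 3 domains just above it were 3002 bp wide on 2R (4034645 to 4037646, score 37.34), 3003 bp on 2L (8542079 to 8545081, score 269.04) and 3004 bp on 3R (5933164 to 5936167, score 489.96). The 3 peaks just below it were 2996 bp wide on 3L (3541366 to 3544361, score 539.67), 2995 bp on 3R (5051468 to 5054462, score 799.86) and 2993 bp on 3R (13993242 to 13996234, score 504.80). All 3 peaks just below the threshold had a higher score than all 3 just above it.

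The 10 widest domains were spread over 3 arms, with 4 on X, 4 on 2R and 2 on 2L. The widest, 22944 bp on X from 7582038 to 7604981, had a score of 664.37. Next came a domain of 18146 bp on X from 2184736 to 2202881, with a score of 692.62. These were the only domains of 15 kb or more on the arms. A pair on 2L measured 14124 bp from 513717 to 527840 and 12212 bp from 543923 to 556134. They differed in score, at 542.67 and 305.86.

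One more domain on X was over 10 kb and reached 11695 bp, from 12553467 to 12565161, with a score of 399.37. The 4 on 2R measured 10815 bp (20842005 to 20852819), 10689 bp (3133101 to 3143789), 10499 bp (4532052 to 4542550) and 10284 bp (14684868 to 14695151). Their scores were 249.91, 618.11, 831.40 and 632.30 in the same order, so these domains of nearly equal width had different scores. The tenth, of 9704 bp, was again on X, from 20935358 to 20945061 (score 361.64).

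Most domains scored high. The highest 10% of scores on the arms, 103 and above, held 421 of the 478 domains (88.1%, 84.8% to 90.8%) and 972 of the narrower peaks (7.24%). The median score was 373.3 for domains and 15.4 for narrower peaks. Score and width are readings of the same signal, so this difference is a description of how the domains were chosen. Within the 478 domains, score and width had a Spearman's rho of 0.31 and a Pearson's r of 0.27. Within all narrower peaks rho was 0.72 and r was 0.63. Among peaks in the highest 10% of scores, rho was 0.26 and r was 0.22 within the 421 domains. Both were 0.39 within the 972 narrower peaks. Each class spans a restricted range of width or score, which bears on its correlation. All of these peaks share the same libraries and the same caller.

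The score can be put on a scale of enrichment. The repeated values of the score matched −log10 Poisson p-values against a genome-wide background of 195.9 fragments, on which 67.6% of all peaks lay. A caller that finds a higher local background in the input scores a peak against that instead. For a peak whose score lies off this set of values, the fold given is an upper bound on its fold over that local background. Its fold over the genome-wide background would be at least the value given. Over the background used for each peak, the median fold was at most 5.19 for domains and at most 1.62 for narrower peaks. The domains ranged from at most 1.75-fold to 10.4-fold. Scores off the genome-wide scale were found in 125 domains (26.2%, 22.3% to 30.3%) and in 31.9% of narrower peaks (31.1% to 32.7%). Within the 2 highest bands of score the order was the other way. The bands do not match scores closely, since 224 domains but 122 narrower peaks had a score of at least 400. Among the 5% of peaks with the highest scores, from 247.4 upwards, 21.3% of the 328 domains were off the scale, against 14.4% of the 368 narrower peaks. In the next 5% the shares were 30.1% of domains and 17.7% of narrower peaks. In lower bands the share of narrower peaks off the scale was uneven. It was 62.5% for scores from 17.03 to 18.46, against 34.0% and 33.4% in the bands on either side. From 9.51 to 10.3 it was 45.0%, against 22.0% and 25.4%. Neither band held a domain, so these steps enter the 31.9% of narrower peaks only. The reason for them was not tested.

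**Figure D1:**
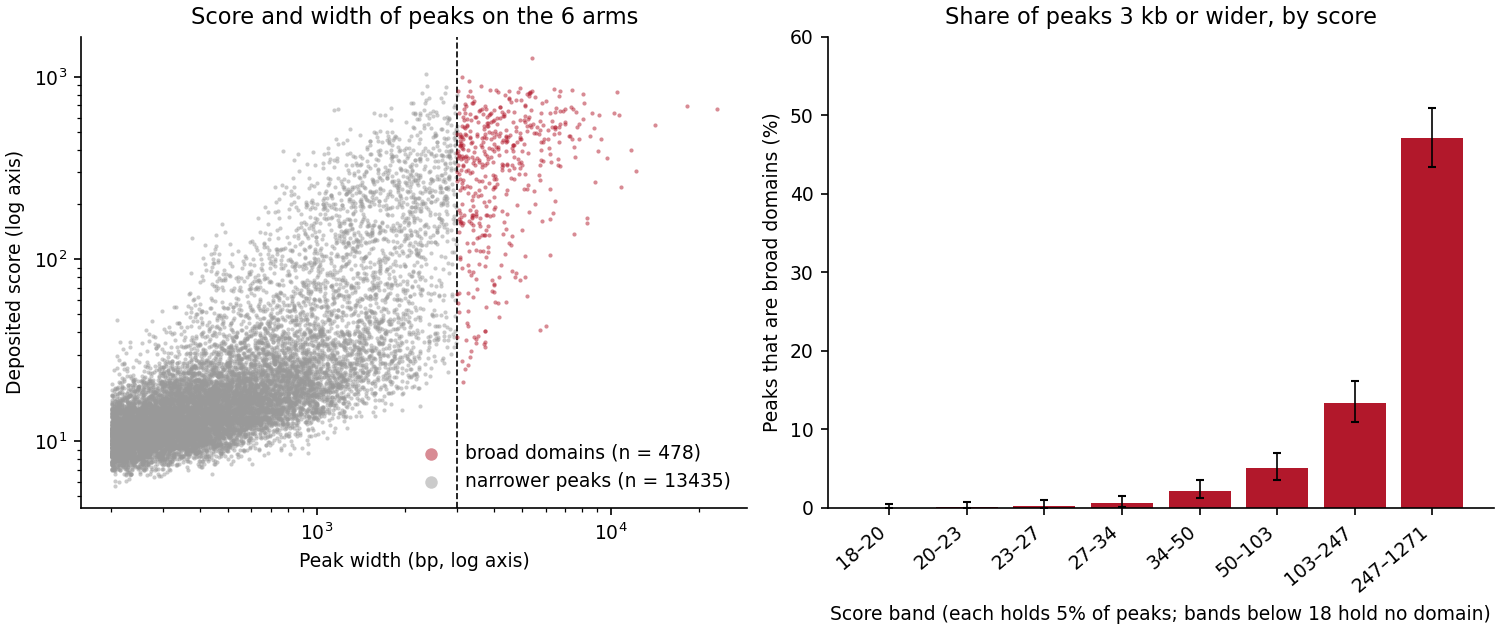
Left, deposited score against width in bp for the 478 broad domains and 13435 narrower peaks on the 6 arms, each point a peak, both axes logarithmic, with the 3000 bp threshold dashed. Right, percent of peaks that are broad domains in bands of 5% of the peaks by score, with exact 95% intervals: 47.1% in the highest band, 13.4% in the next and under 1% in every band with scores up to 34.3.

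Score alone did not make a domain. In the band of the highest 5% of scores, 328 of 696 peaks (47.1%, 43.4% to 50.9%) were 3 kb or wider. The share was 64.7% for peaks with a score of at least 400, 71.5% from 600 and 82.1% from 800, where 23 of 28 peaks were domains. The highest-scoring peaks included both kinds. The 3 domains with the highest score were 5389 bp wide on 3R (27536815 to 27542203, score 1270.81), 3111 bp on 2L (14489199 to 14492309, score 1004.54) and 3296 bp on 2L (14408200 to 14411495, score 950.53). The 3 narrower peaks with the highest score were 2343 bp wide on 2R (8901655 to 8903997, score 1046.77), 2374 bp on 2R (15993266 to 15995639, score 889.03) and 2756 bp on 3L (1586003 to 1588758, score 888.11).

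A minority of domains were wide and low. There were 57 outside the highest 10% of scores, with a median score of 58.2 and a median width of 3493 bp, up to 6037 bp. Their median fold over the background used for each peak was at most 2.36. Scores off the genome-wide scale made up 47.4% of these 57 (34.0% to 61.0%) and 23.3% of the other 421 (19.3% to 27.6%). The lowest score of all domains, 21.15, belonged to a peak of 3140 bp on 2L from 20090176 to 20093315. It was followed by one of 3191 bp on 2R (17963692 to 17966882, score 24.93) and one of 3260 bp on 2L (123286 to 126545, score 26.27). All 57 had at least 1 narrower peak within 10 kb, with a median of 9.

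Broad domains lay on all 6 arms but not evenly per length. Arm 2R had 4.97 domains per Mb, X had 4.56, 3R had 4.48, 2L had 3.40 and 3L had 2.69, taking the end of its last peak as the length of each arm. The ratio of the densest to the sparsest long arm was 1.85. Arm 4 carried 2 domains, or 1.55 per Mb, of which the wider was 4123 bp. Measured against the peaks of the same arm, the long arms gave closer values. The share of peaks that were domains was 4.08% on X (3.34% to 4.93%), 3.47% on 3R (2.89% to 4.11%), 3.44% on 2L (2.73% to 4.28%), 3.22% on 2R (2.64% to 3.89%) and 3.02% on 3L (2.35% to 3.83%), and these intervals overlap. Among peaks in the highest 10% of scores the values lay further apart, at 34.2% domains on 3R (29.2% to 39.6%), 32.5% on X (27.2% to 38.3%), 31.7% on 2R (26.4% to 37.4%), 28.0% on 2L (22.1% to 34.4%) and 22.4% on 3L (17.5% to 28.0%). The intervals of 3R and 3L do not overlap, but the difference was not tested. Within 3L the share was 10.8% from 6 to 17 Mb and 29.9% on the rest of the arm.

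**Figure D2:**
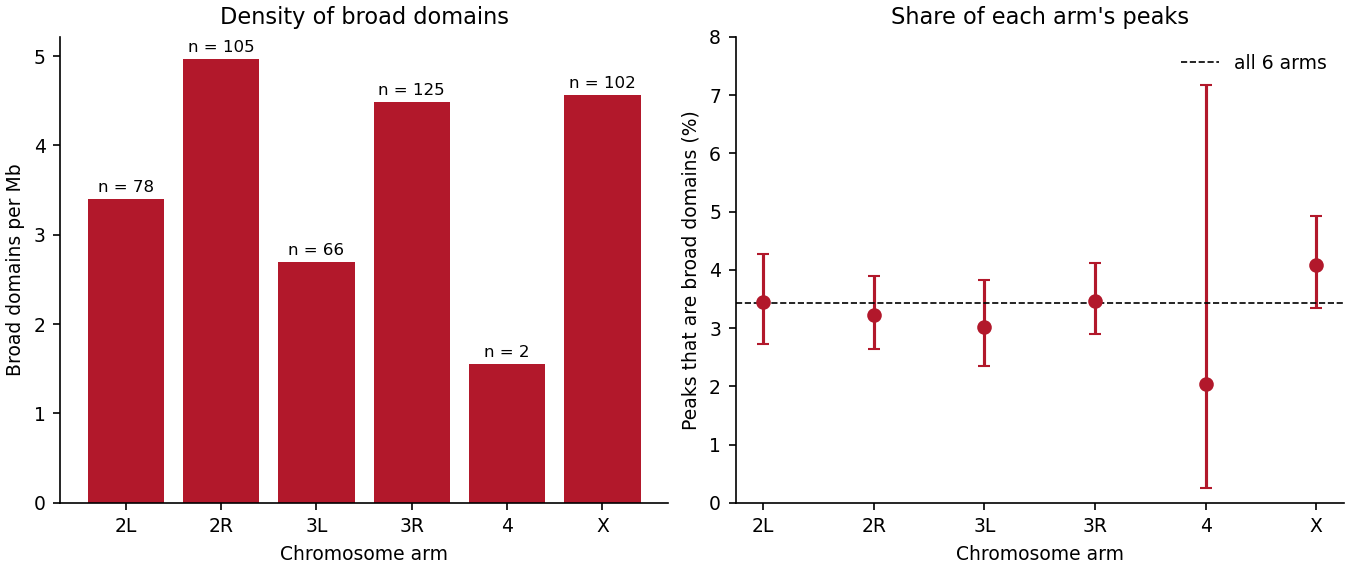
Left, broad domains per Mb on each chromosome arm, with the number of domains above each bar. Right, percent of each arm's peaks that are broad domains, with exact 95% intervals and the value of all 6 arms (3.44%) dashed: density runs from 1.55 per Mb on arm 4 to 4.97 on 2R, while the intervals of the shares overlap.

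Widths and scores of the domains were also set side by side by arm, without a test of the differences. On 3L, 24 of 66 domains (36.4%, 24.9% to 49.1%) were 5 kb or wider, against 18 of 102 on X (17.6%, 10.8% to 26.5%). These intervals overlap. The X chromosome also held the widest 2 domains of the list. The share of 5 kb domains was 31.4% on 2R, 28.2% on 2L and 21.6% on 3R. Domains outside the highest 10% of scores made up 21.8% of those on 2L (13.2% to 32.6%), and 7.84% of those on X (3.45% to 14.9%) and 8.0% of those on 3R (3.90% to 14.2%), with intervals that again overlap. On 2L, 44.9% of domains and 54.3% of narrower peaks were scored off the genome-wide scale, the highest values among the long arms for both. The part of local background in these differences was not tested.

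The broad domains were sparse in 2 long stretches that still held high-scoring peaks. The limits of both stretches, 2 to 10 Mb on 2L and 6 to 17 Mb on 3L, were set in earlier work on this list because narrower, weaker peaks were few there. In the stretch of 2L there were 15 domains, or 1.88 per Mb, against 4.21 per Mb elsewhere on 2L. On 3L there were 14 in the stretch, or 1.27 per Mb, against 3.84 per Mb elsewhere. Narrower peaks numbered 36.6 per Mb in the 2L stretch, against 127 per Mb elsewhere on the arm. They numbered 35.0 per Mb in the 3L stretch, against 128 per Mb elsewhere. The low density of narrower peaks is how the stretches were chosen, so it and the shares that follow are not a separate result. Because narrower peaks were scarcer still, domains made up 4.87% of all peaks in the 2L stretch (2.75% to 7.91%), against 3.22% elsewhere on 2L (2.48% to 4.10%). On 3L they made up 3.51% in the stretch (1.93% to 5.82%), against 2.92% elsewhere (2.18% to 3.81%).

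Peaks in the highest 10% of scores had a similar density inside and outside the stretch of 2L, at 9.63 and 9.42 per Mb, and on 3L they stood at 9.27 and 11.6 per Mb. A smaller share of them were domains inside the stretches, a difference that was not tested. Of the high-scoring peaks, 14 of 77 in the stretch of 2L (18.2%, 10.3% to 28.6%) were domains, against 47 of 141 elsewhere on 2L (33.3%, 25.6% to 41.8%). In the stretch of 3L, 11 of 102 were domains (10.8%, 5.51% to 18.5%), against 47 of 157 elsewhere on 3L (29.9%, 22.9% to 37.7%). The median high-scoring peak was 1757 bp wide with a score of 206.5 in the stretch of 2L, against 2249 bp and 236.2 outside it. It was 1608 bp wide with a score of 220 in the stretch of 3L, against 2189 bp and 236.8 outside it. Of the domains, 6.67% in the stretch of 2L were off the genome-wide score scale, against 54.0% elsewhere on 2L. On 3L, 21.4% in the stretch were off it, against 32.7% elsewhere. Since the score and the edges of a peak both depend on the background used, width and background cannot be told apart here.

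**Figure D3:**
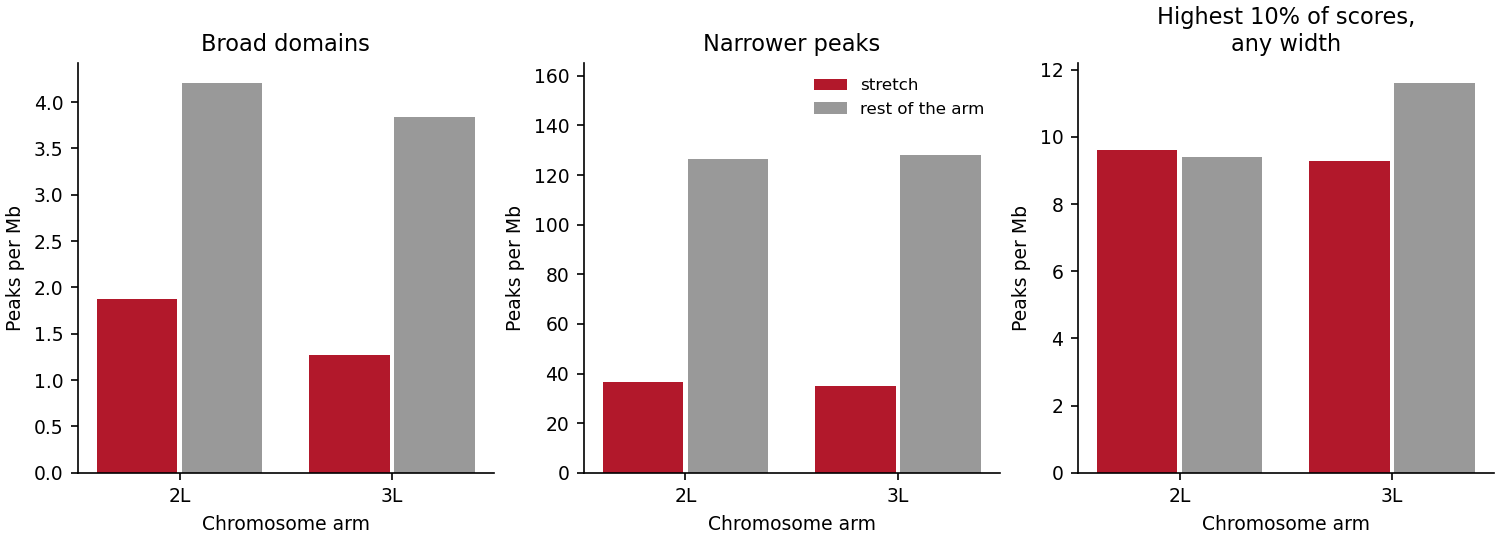
Peaks per Mb in the stretches from 2 to 10 Mb of 2L and from 6 to 17 Mb of 3L, beside the rest of each arm, for broad domains, narrower peaks and all peaks in the highest 10% of scores. Domains stood at 1.88 and 1.27 per Mb in the stretches, against 4.21 and 3.84 on the rest, while high-scoring peaks stood at 9.63 and 9.27, against 9.42 and 11.6. The stretches were chosen for few narrower peaks.

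In bins of 1 Mb the number of domains ranged from 0 to 13, with a median of 3, over the 116 complete bins of the long arms, and 13 bins had none. The bins from 7 to 8 Mb on 2R and from 5 to 6 Mb on 3R each held 13, and the first Mb of 2L held 12. The longest distance between neighbouring domains was 3021446 bp on 3L, from 5651111 to 8672556. This interval held 128 narrower peaks, of which 20 were in the highest 10% of scores and the widest was 2785 bp. A shorter interval without a domain, of 2020011 bp on 2L, held 187 narrower peaks.

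Domains often had other domains close by. The distance between facing edges was 10 kb or less from 148 of 478 domains to another domain (31.0%, 26.8% to 35.3%), and 56 domains (11.7%) had one within 1 kb. The smallest distance was 55 bp, and the median distance from one domain to the next along an arm was 98725.5 bp. Strong narrower peaks, meaning the 972 in the highest 10% of scores, had another of their own class within 10 kb in 28.0% of cases (25.2% to 30.9%) and within 1 kb in 7.61%. At longer distances the order was the other way, with 42.7% of domains and 43.2% of strong narrower peaks within 20 kb, and 74.1% of domains and 83.4% of strong narrower peaks within 100 kb. That class has 972 members to 478 domains, so its members would lie closer together at even spacing, and the shares are not directly comparable.

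Chained by distances of 10 kb or less, 148 domains formed 61 groups, while 330 domains stood alone. The groups were 45 pairs, 11 triplets, 3 groups of 4, 1 of 6 and 1 of 7. Grouped and single domains had close medians. The medians were 4030 bp and a score of 376.9 for grouped domains, against 3914 bp and 373.3 for single ones. Scores off the genome-wide scale made up 34.5% of grouped and 22.4% of single domains.

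The largest group had 7 domains within 57.5 kb of 3R, from 17403711 to 17461167. In order along the arm they were 3129, 3891, 3225, 6366, 4667, 5775 and 5714 bp wide. Their scores in the same order were 201.20, 172.09, 305.43, 180.59, 642.04, 440.95 and 489.96. The 6 distances between them were 137, 4257, 3779, 401, 6452 and 9664 bp, so 2 pairs nearly touched while the others were kilobases apart. The domains covered 57.0% of the group, and 13 narrower peaks between them brought the covered part to 73.6%.

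**Figure D4:**
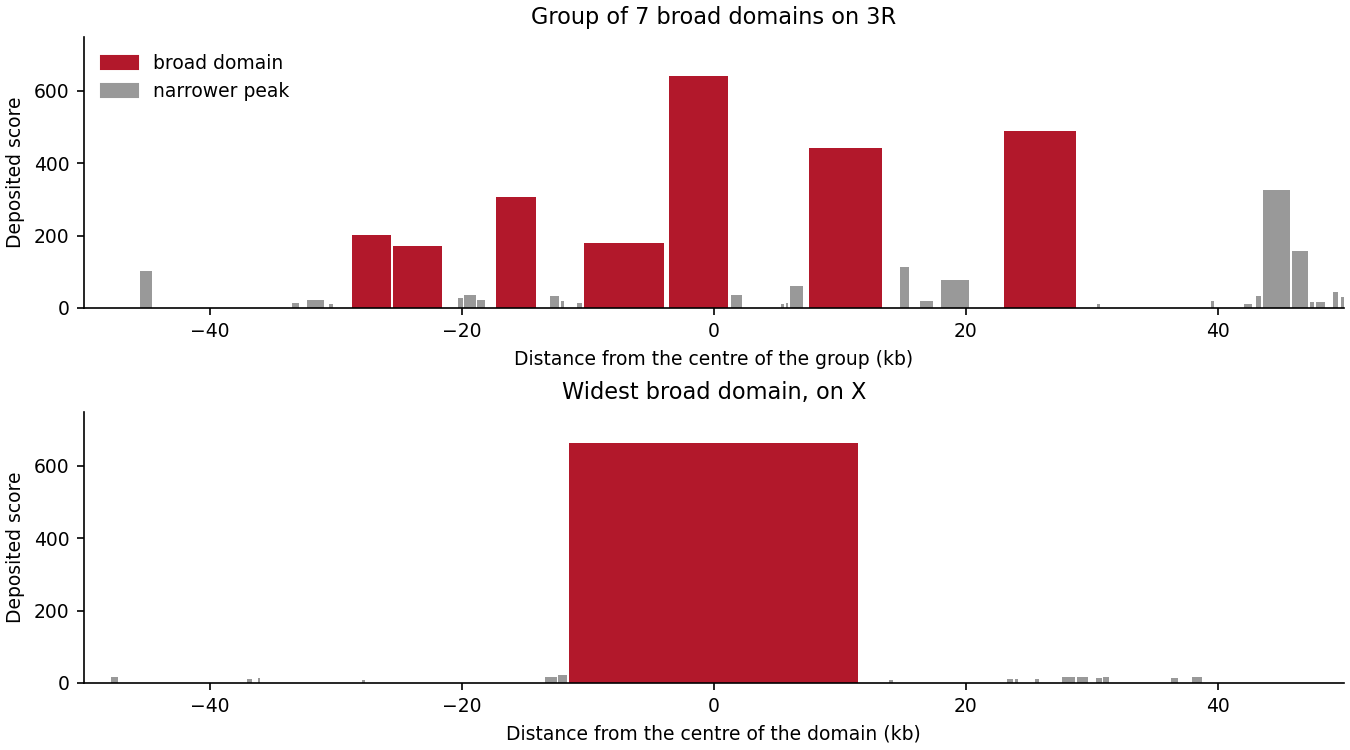
Peaks drawn to scale as boxes from start to end, in kb from the centre, with the deposited score as height, for the group of 7 broad domains on 3R (top) and the widest domain, on X (bottom). Broad domains and narrower peaks have different colours; the 7 domains score from 172.09 to 642.04, and the widest domain of 22944 bp has narrower peaks of low score around it.

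The following 4 regions were chosen after their values were seen. A group of 6 domains on 3R, from 12032639 to 12078216, was denser, with 67.0% of its 45.6 kb in domains and 84.7% in peaks of any width. On X, 3 domains between 3570381 and 3591850 covered 92.1% of 21.5 kb with no narrower peak between them. The domain with the highest score led a triplet on 3R that covered 97.1% of the 16.3 kb from 27536815 to 27553147. The only group of 2 or more domains that were all outside the highest 10% of scores was a triplet on 2L from 11998278 to 12012870. Its domains were 4038, 4902 and 4613 bp wide with scores of 58.06, 77.04 and 86.50, and they covered 92.9% of 14.6 kb.

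Nearly all domains were flanked by narrower peaks. The median domain had 7 narrower peaks within 10 kb of its edges (25% had 4 or fewer and 25% had 10 or more), and 24 domains (5.02%, 3.24% to 7.38%) had none. Around narrower peaks as a whole the median was also 7, and 4.61% had none. Around strong narrower peaks the median was 4, and 15.0% had none (12.8% to 17.4%). Domains among the highest 10% of scores had a median of 7, and 5.70% had none (3.69% to 8.36%). They pass the same score limit as strong narrower peaks but had a higher median score, 418.5 against 207.5. By long arm, the median around domains ran from 6 on 3L to 8 on 2L and 2R.

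The most crowded domain, of 6699 bp on 2L from 16266030 to 16272728 (score 648.41), had 19 narrower peaks within 10 kb. The widest domain without any was 8109 bp on 3L, from 14746170 to 14754278. It had a score of 716.86, lay within the stretch of 6 to 17 Mb, and was 17358 bp away from the nearest peak of any width. The widest domain of all, on X, had 3 narrower peaks within 10 kb, whereas the pair of 14124 and 12212 bp on 2L had 14 and 15.

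The nearest peak often began close to the edge of a domain. The median distance to the nearest peak of any width was 220 bp for domains, against 325 bp for narrower peaks and 486 bp for strong narrower peaks. It was under 500 bp for 74.3% of domains (70.1% to 78.1%), 61.5% of narrower peaks and 50.7% of strong narrower peaks (47.5% to 53.9%). No 2 peaks on the arms were less than 50 bp apart, and none there was narrower than 201 bp, a width that 180 of them had exactly.

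The sequence around domains was more covered than that around strong narrower peaks out to at least 10 kb. Narrower peaks covered 31.3% of the first kb beside a domain and 33.6% of the second, against 20.2% and 20.3% beside strong narrower peaks. Beside all narrower peaks these values were 25.1% and 29.0%. From 9 to 10 kb away the cover was 19.1% from domains, 12.6% from strong narrower peaks and 17.9% from all narrower peaks, and over whole arms it was 7.15%. Other domains covered 9.54% of the sequence from 3 to 4 kb beside a domain, against 3.15% beside strong narrower peaks, 5.69% beside all narrower peaks and 1.81% of whole arms.

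**Figure D5:**
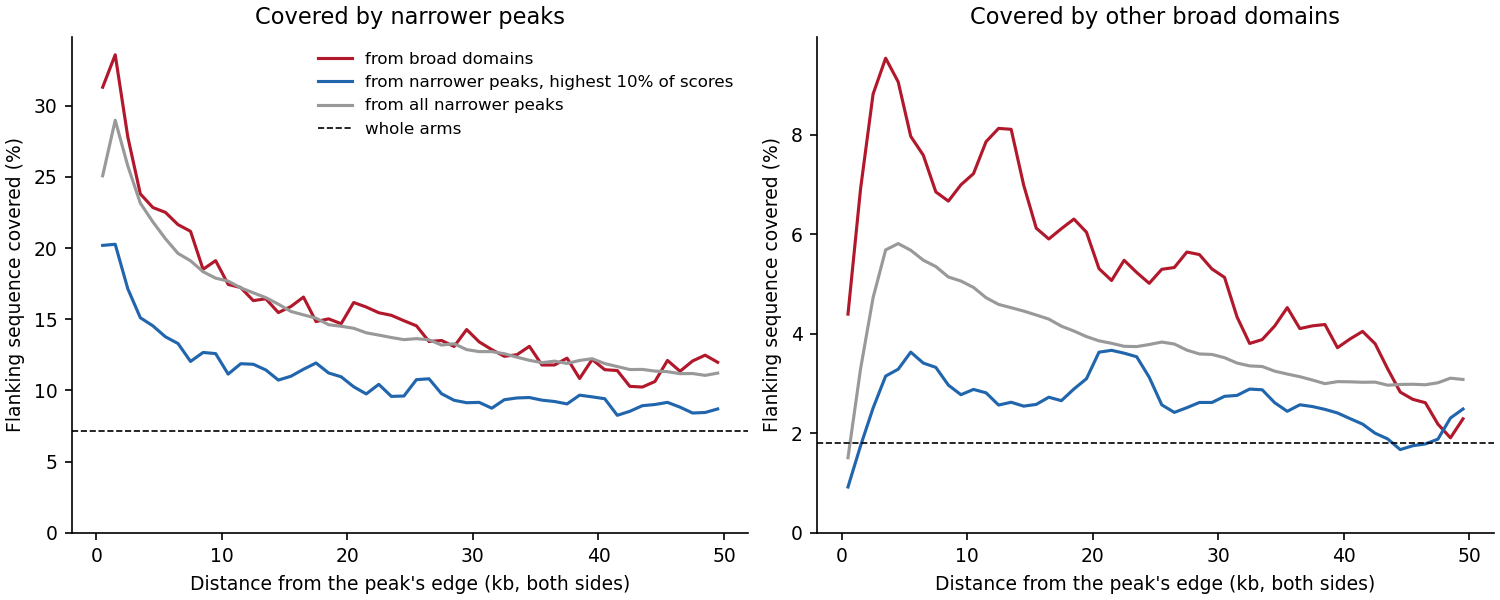
Percent of flanking sequence covered by narrower peaks (left) and by other broad domains (right), in steps of 1 kb out to 50 kb from the edges of broad domains, of narrower peaks in the highest 10% of scores and of all narrower peaks; the dashed lines give the cover of whole arms (7.15% and 1.81%). From 1 to 2 kb away narrower peaks cover 33.6% beside domains, 20.3% beside strong narrower peaks and 29.0% beside all narrower peaks.

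The narrower peaks next to domains were mostly weak, as were narrower peaks as a whole. The 657 within 1 kb of a domain had a median score of 19.6 and a median width of 535 bp, against 15.2 and 423 bp for the 6502 more than 50 kb from any domain. Of those within 1 kb, 3.96% were in the highest 10% of scores, against 9.03% of those more than 50 kb away and 7.24% of all narrower peaks. Scores off the genome-wide scale made up 33.6% within 1 kb, 40% from 1 to 5 kb and 26.4% beyond 50 kb. Between these limits the median score was 16.3 from 1 to 5 kb, 15.3 from 5 to 10 kb and 15.0 from 10 to 50 kb.

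How many domains there are depends on where one peak is taken to end. When peaks less than 200 bp apart were joined, 658 blocks of 3 kb or more resulted, and 258 of the 478 domains were not joined to any other peak. With peaks less than 1 kb apart joined there were 1388 such blocks, and 60 domains were not joined to another peak. Of the 1388 blocks, 966 held no domain and were made of narrower peaks, with a median of 5 peaks and a median width of 4463 bp. Another 378 held 1 domain, and 44 held 2 or more, 100 domains in all. The highest 10% of scores included the best peak of 35.6% of the blocks without a domain.

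The widest block joined in this way was 43079 bp of 3R, from 12042433 to 12085511, with 5 domains among its 21 peaks. Next was 42490 bp of 2L, from 465382 to 507871, with 3 domains among 18 peaks. The third, 33918 bp of 2L from 11986883 to 12020800, enclosed the low-scoring triplet and had 24 peaks, none with a score above 86.50. The fourth, 30976 bp of 2L from 11037285 to 11068260, also had 24 peaks but no domain, and its best score was 497. Wide stretches of peaks thus occurred with domains of high score, with domains of low score and with no domain.

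By 100 kb windows, 322 of 1204 windows (26.7%) held a domain, and 1048 held a peak of any width. The median number of narrower peaks was 18 in windows with a domain, against 4 in windows without, which include those with no peak. It was 14 in the 213 windows with 1 domain, 21 in the 79 with 2, 34.5 in the 20 with 3 and 20 in the 7 with 4, and the 1 window with 5 domains had 23. The 2 windows with most domains, 7 each, were on 3R from 12000001 to 12100000 and from 17400001 to 17500000, and had 37 and 32 narrower peaks.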

How the data were processed

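Kc167 cells gave 3 Su(H) ChIP libraries and 1 of input DNA. The authors deposited 1 peak list with a score per peak. Its coordinates are those of FlyBase release 5 and its caller is MACS, per the file headers. MACS2, BWA, BDGP5 and CASAVA (1.7.0.2, 1.7.0.3) stand in the submitters' processing notes. Neither the calling threshold nor the libraries behind the list nor their depth is known here.

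Domains are peaks of 3000 bp or more. The domains, the stretches of 2L and 3L and the quantities computed were chosen with earlier results of these data known. Named regions follow a rule on width, score, grouping and surroundings. Distances run between facing edges. The background of the score was fitted to scores under 40 shared by at least 25 peaks (tolerance 0.015), then to all scores (0.0075). The fit was tested on data simulated on such a scale, so that test does not show that the deposited scores follow it. Of 6 results, each was recomputed with other width limits, distances, joined peaks or score limits. No comparison was tested, because width chose the domains. No genome of release 5 was used here, so no sequence or gene is given. The tools were SciPy 1.17.1, pandas 2.3.3, NumPy 2.4.6 and matplotlib 3.10.9 under Python 3.11.15.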

Additional observations from a re-analysis of the deposited data

Results flagged for a closer look

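Peaks of 3000 bp or more also occurred outside the 6 arms, in sequence that none of the comparisons uses. There were 4 among the 471 peaks there, or 0.849% (exact 95% interval 0.232% to 2.16%), a smaller share than the 3.44% on the arms. They are listed because they carry signal outside the main measurement, not because they are in excess. Those on 2RHet were 5389 bp wide (3182127 to 3187515, score 72.53) and 3050 bp wide (2842587 to 2845636, score 1010.40). The third was 4092 bp wide on 3LHet (2400593 to 2404684, score 46.88) and the fourth 4415 bp wide on the unplaced sequence U (5630240 to 5634654, score 99.27). All 4 were scored off the genome-wide scale. The share off it among all 471 peaks there was not measured, so this is not shown to be particular to the 4. A part for repeated sequence in these peaks was not tested.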

How the results depend on the processing

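The ratio of the densest to the sparsest long arm was 1.85 and ran from 1.55 to 1.94 under 4 alternatives. Among these, keeping the upper 50% of scores could not change the ratio, because every domain scored above that limit. For the same reason it left all 478 domains and 31.0% with another within 10 kb. It put 26.4% of the remaining cover in domains and lowered the median of narrower peaks within 10 kb to 4, since fewer peaks were left. A width limit of 2000 bp gave 1029 domains with 32.6% of the cover, 48.7% with another within 10 kb, 76.3% among the highest 10% of scores and a median of 7 narrower peaks. A limit of 5000 bp gave 124 domains with 7.91% of the cover, 10.5% with another within 10 kb, 96.8% among the highest 10% and a median of 8. Joining peaks less than 1 kb apart gave 1388 domains with 66.0% of the cover, 58.0% with another within 10 kb and a median of 2. Of these, 33.1% were among the highest 10% of scores of the joined blocks. That limit was set anew over the blocks and is not the 103 used for the peaks, so the shares are not directly comparable. The share of domains with another nearby was 23.0% within 5 kb and 42.7% within 20 kb, the median of narrower peaks was 4 within 5 kb and 12 within 20 kb, and 68.6% of domains were among the highest 5% of scores. Beyond these changes of definition the cause was not tested. No paired analysis was possible because single libraries have no values in the list, which is also why no replicate could be left out. Unknown depth limits all widths, since the edge of a peak depends on it.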
